A study of Homo sapiens with 9 samples.

Results

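Krüppel-like factors (KLFs) are zinc-finger transcription factors, and 9 of their genes are described here: KLF2, KLF3, KLF4, KLF5, KLF6, KLF10, KLF11, KLF13 and KLF16. They were taken by symbol as 9 of the 38478 gene rows of a read count table from OPM-1 cells, a human myeloma line grown in RPMI with 10% serum. All 9 had enough reads to be among the 13262 genes tested. Cells stably expressed targeting RNAs, and the groups, each of 3 libraries labelled as independent biological replicates, were gFBXW7 + gKMT2D (both genes targeted), gFBXW7 (FBXW7 targeted) and gLuc (luciferase targeted, the control). All groups share the line and are labelled wild type, no further treatment is named, and the labels do not say how the RNAs act or whether the cells are clones. The series title names the question, what loss of FBXW7, alone or with KMT2D, does to messenger RNA.

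KLF proteins bind GC-rich DNA and CACCC sequences through zinc fingers at their C-terminal end, and the rest of each protein decides whether it activates or represses. FBXW7 picks the substrates of an SCF-type ubiquitin ligase, and the proteins of KLF2, KLF5 and KLF13 are among its known substrates, so it acts on protein and the transcripts counted here do not report protein level. KMT2D is a histone H3 lysine 4 methyltransferase of enhancers. In myeloma, the demethylase KDM3A maintains KLF2 and IRF4, and KLF2 in turn activates IRF4, on which myeloma cells depend.

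Library totals lay between 16337492 and 27076242 counts. The share of counts in 86 genes with ribosomal protein symbols was 5.03% to 11.2%, highest in gFBXW7 + gKMT2D 3, and the share in 13 transcripts of mitochondrial DNA was 0.638% to 3.67%. The targeted gene FBXW7 had 46.1, 45.2 and 71.7 CPM (counts scaled to library size with TMM factors) in gFBXW7 + gKMT2D, 53.4, 55.5 and 54.8 CPM in gFBXW7, against 53.9, 47.9 and 48.7 CPM in gLuc. KMT2D had 48.0, 107.0 and 28.6 CPM in gFBXW7 + gKMT2D, 48.8, 65.1 and 59.1 CPM in gFBXW7, against 41.0, 58.3 and 104.3 CPM in gLuc. Neither transcript was called or lay apart from gLuc, so their levels give no check of the labels. All 10 plasma cell markers were tested, with summed levels of 10720 to 16880 CPM in gFBXW7 + gKMT2D, 13520 to 14620 CPM in gFBXW7 and 12520 to 15080 CPM in gLuc. Most of each sum was JCHAIN, from 7766 CPM in gFBXW7 + gKMT2D 2 to 13570 CPM in gFBXW7 + gKMT2D 3. In gFBXW7 + gKMT2D, 9 of the 10 markers were lower against gFBXW7 and 7 against gLuc, with 0 called. Over all tested genes, 54.6% and 50% were higher in these comparisons. Among the markers, the plasma cell surface gene SDC1 averaged 279.1, 367.4 and 358.4 CPM in gFBXW7 + gKMT2D, gFBXW7 and gLuc. Its log2 fold change in gFBXW7 + gKMT2D was -0.40 against gFBXW7 (SE 0.14, edgeR adjusted p = 1) and -0.36 against gLuc (SE 0.14, adjusted p = 0.90). Its 3 gFBXW7 + gKMT2D libraries (238.8 to 306.2 CPM) lay below the other 6 (at least 338.0 CPM). Of 26 markers of other cell types, 3 were tested (HBB, PECAM1 and NCAM1), 11 had no read in any library, and the sum was 89.2 to 123.9 CPM in gFBXW7 + gKMT2D, 90.4 to 95.7 CPM in gFBXW7 and 92.1 to 103.7 CPM in gLuc. Most of that sum came from HBB and NCAM1, an adhesion molecule that myeloma cells also carry. NCAM1 averaged 69.2, 53.8 and 66.4 CPM in these groups and HBB 33.6, 38.0 and 30.6 CPM. In gFBXW7 + gKMT2D 3, HBB (43.7 CPM) was slightly above NCAM1 (43.4 CPM). The endothelial gene PECAM1 averaged 1.002, 1.35 and 1.70 CPM.

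The promoters of the 4 members with the highest level and of KLF4, the lowest, are shown because KLF proteins and their SP relatives bind GC boxes and many promoters of the family hold them. Each window runs from 250 bases before to 50 bases after a RefSeq start site, 5′ to 3′ on the gene's strand, with coordinates on GRCh38.p14. Capitals mark a GC box (GGGCGG, or CCGCCC on the other strand) or a CACCC box (CACCC, or GGGTG on the other strand). Matches may overlap, as at CCGCCCACCC in KLF13.
KLF6, chr10:3785160-3785459, minus strand: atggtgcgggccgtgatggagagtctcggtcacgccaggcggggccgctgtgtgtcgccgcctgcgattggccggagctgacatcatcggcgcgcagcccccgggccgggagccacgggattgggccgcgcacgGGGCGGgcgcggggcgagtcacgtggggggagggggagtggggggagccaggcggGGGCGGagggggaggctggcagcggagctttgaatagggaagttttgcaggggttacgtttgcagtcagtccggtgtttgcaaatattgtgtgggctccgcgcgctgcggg
KLF2, chr19:16324576-16324875, plus strand: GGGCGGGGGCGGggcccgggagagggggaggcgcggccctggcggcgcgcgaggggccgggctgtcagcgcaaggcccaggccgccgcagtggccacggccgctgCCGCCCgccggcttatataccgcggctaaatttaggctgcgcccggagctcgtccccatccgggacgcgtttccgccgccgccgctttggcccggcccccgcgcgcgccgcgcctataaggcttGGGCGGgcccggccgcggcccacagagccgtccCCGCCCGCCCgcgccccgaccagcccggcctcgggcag
KLF13, chr15:31326585-31326884, plus strand: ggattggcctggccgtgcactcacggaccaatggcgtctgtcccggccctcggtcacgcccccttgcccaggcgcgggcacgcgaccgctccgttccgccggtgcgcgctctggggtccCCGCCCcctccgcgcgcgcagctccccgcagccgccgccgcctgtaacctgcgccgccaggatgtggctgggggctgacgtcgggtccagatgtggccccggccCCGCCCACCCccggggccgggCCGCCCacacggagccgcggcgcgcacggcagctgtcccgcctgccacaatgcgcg
KLF16, chr19:1863530-1863829, minus strand: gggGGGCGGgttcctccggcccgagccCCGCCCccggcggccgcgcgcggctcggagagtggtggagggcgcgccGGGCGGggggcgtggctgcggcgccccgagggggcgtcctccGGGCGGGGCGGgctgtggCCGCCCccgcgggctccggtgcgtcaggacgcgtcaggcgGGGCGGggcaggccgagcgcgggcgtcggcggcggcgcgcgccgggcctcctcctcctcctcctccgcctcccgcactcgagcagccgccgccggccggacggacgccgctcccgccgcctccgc
KLF4, chr9:107489720-107490019, minus strand: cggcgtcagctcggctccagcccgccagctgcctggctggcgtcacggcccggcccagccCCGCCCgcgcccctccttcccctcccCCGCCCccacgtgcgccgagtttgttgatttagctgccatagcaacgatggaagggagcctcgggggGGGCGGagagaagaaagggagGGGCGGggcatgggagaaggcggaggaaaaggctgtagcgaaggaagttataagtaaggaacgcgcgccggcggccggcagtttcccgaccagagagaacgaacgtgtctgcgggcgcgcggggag

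GC boxes numbered 2 in the KLF6 window, 6 in KLF2, 3 in KLF13, 7 in KLF16 and 4 in KLF4, so their number did not follow the order of the levels. Of all 35116 windows of the same length, 45% held a GC box and 59.9% a CACCC box. A CACCC box was found in the KLF13 window alone among these 5. Their GC content was 70.7% for KLF6, 80.7% for KLF2, 78.3% for KLF13, 86% for KLF16 and 69% for KLF4, above the median of 58.7% over all windows. Windows of 7 of the 9 members were used, as windows on chromosome 8, where KLF10 lies, were left out and KLF3 had none. Among the other members with a window used, those of KLF11 held 2 and 7 GC boxes, and those of KLF5 held none in the upstream window and 2 at the downstream start. The upstream KLF5 window had 40.7% GC, below the median over all windows, and 1 CACCC box. Its downstream window had 71.3% GC and 2 CACCC boxes. The KLF11 windows had 77.3% and 75.3% GC, with 0 and 1 CACCC box. A match is a description of these letters and not a binding site.

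Levels of different members are compared per length, as the deposited RPKM (reads scaled to gene length and to the library's counted reads). KLF6, a widely expressed factor and tumour suppressor, was the highest, with a mean of 61.4 ± 11.4 RPKM over the 9 libraries (SD, n = 9, all groups). KLF2, which keeps lymphocytes quiescent and directs their trafficking, followed with 40.1 ± 6.65 RPKM, and KLF13, an activator of the chemokine gene CCL5 in T cells, with 23.4 ± 7.33 RPKM. KLF16, a repressor that works through SIN3A, had 12.9 ± 2.08 RPKM. These 4 genes made up 40.1%, 26.2%, 15.3% and 8.45% of the summed mean RPKM of the 9 members.

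A lower tier held KLF10 at 4.93 ± 0.835 RPKM, KLF3 at 4.89 ± 1.38 RPKM and KLF11 at 3.69 ± 0.703 RPKM (SD, n = 9). KLF5, best known from proliferating epithelium, had 1.62 ± 0.274 RPKM. KLF4, a factor of cell cycle arrest and reprogramming, had 0.214 ± 0.0609 RPKM, which rests on 8 to 19 counts a library. The libraries of neighbouring members did not overlap between KLF16 and KLF10, between KLF11 and KLF5, or between KLF5 and KLF4. Although the ranges of KLF6 and KLF2 overlapped, KLF6 was above KLF2 in 9 of 9 libraries. KLF2 was above KLF13 in 7 of 9, the exceptions being gFBXW7 + gKMT2D 2 and gLuc 3, and KLF10 was above KLF3 in 5 of 9, so those last neighbours have no order.

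**Figure D1:**
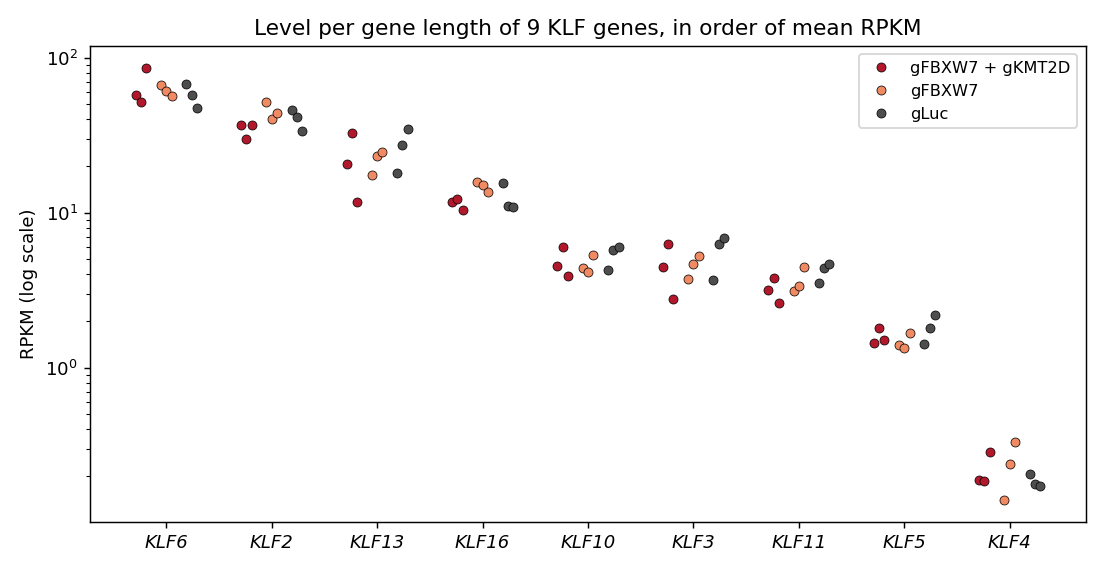
RPKM of each member in each library (points, log axis), coloured by group, with members in order of their mean. KLF6, KLF2, KLF13 and KLF16 lay above 10 RPKM in all 9 libraries, and KLF4 lay between 0.140 and 0.331 RPKM.

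The 3 groups were then compared in 1 edgeR quasi-likelihood fit of all 9 libraries, with p-values adjusted over the 13262 genes tested. In none of the 3 comparisons did any of the 9 members pass the threshold of an adjusted p under 0.05. In gFBXW7 + gKMT2D against gLuc, 0 of 9 members were called, where 0.0528% of all tested genes were. Against gFBXW7 the members called were again 0 of 9, where 0.0603% of all genes were, and in gFBXW7 against gLuc 0 of 9, where 0% were. At an unadjusted p under 0.05 edgeR also found 0 of 9 members in each comparison, beside 3.61%, 4.22% and 1.58% of all tested genes. With 1 surrogate variable (a model term that takes up variation shared between libraries), 2 of 9 members had an unadjusted edgeR p under 0.05 against gLuc (KLF2 and KLF11), beside 9.42% of all genes, and 2 of 9 against gFBXW7 (KLF2 and KLF16), beside 16.7%. The DESeq2 Wald test called 0 of 9 in each as well. In bulk RNA, fewer cells that express a gene and less RNA per cell cannot be told apart.

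Direction was mixed. In gFBXW7 + gKMT2D against gLuc, 2 members had a positive log2 fold change and 7 a negative one, with a median of -0.11 beside 0 for all tested genes. Against gFBXW7, 3 were positive and 6 negative, with a median of -0.03 beside 0.02. In gFBXW7 against gLuc, 4 were positive and 5 negative, with a median of -0.16 beside -0.004. The comparisons share libraries, so the same values enter more than one of these counts.

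**Figure D2:**
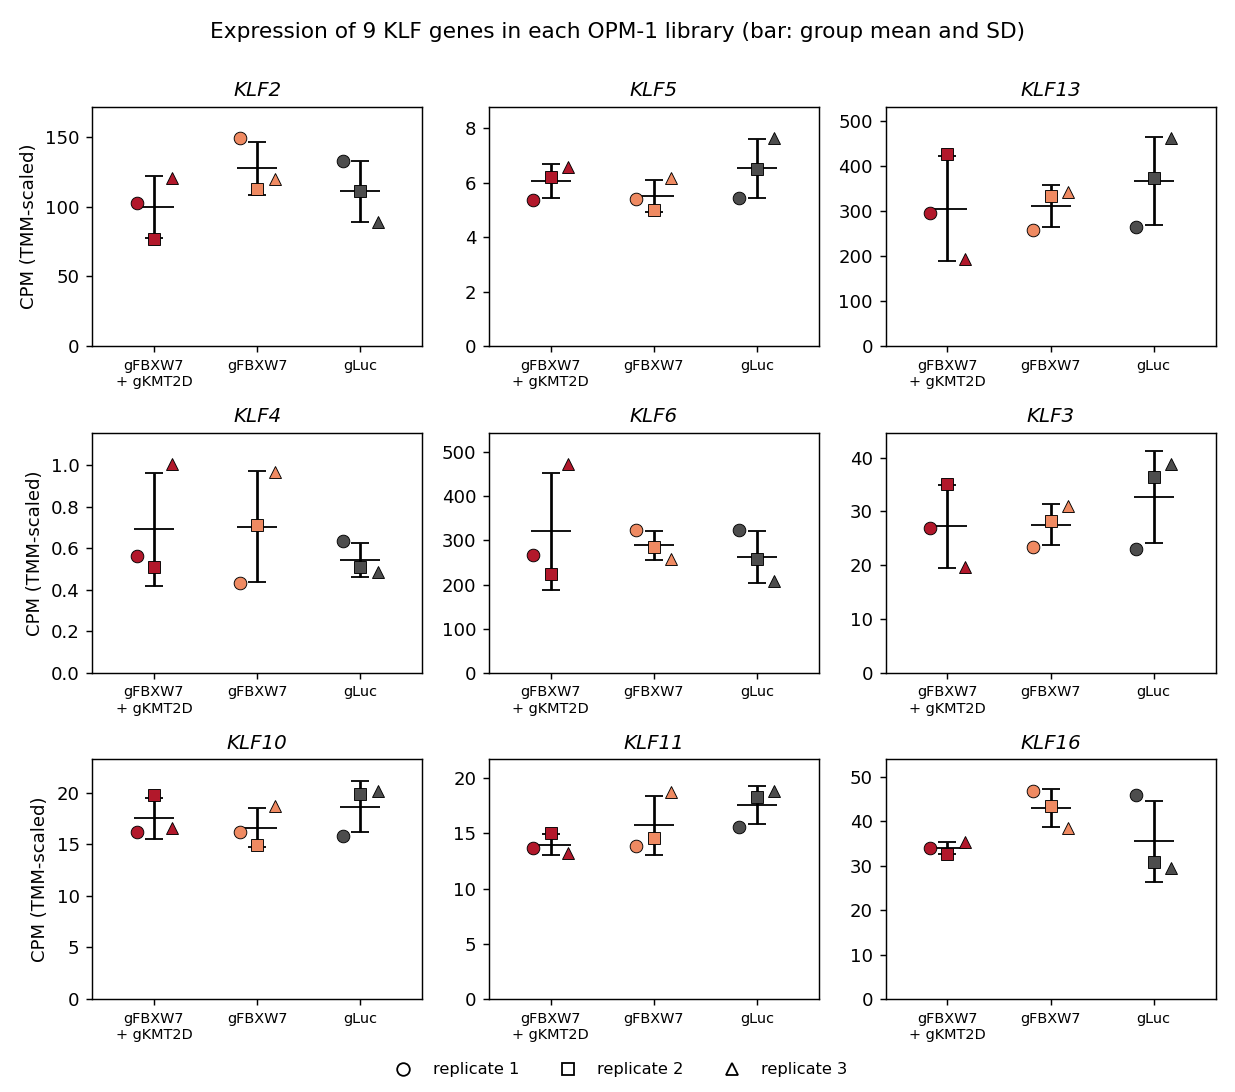
TMM-scaled CPM of each member by group, with a symbol for each replicate and a bar for the group mean and SD (n = 3). The groups overlapped for all members except KLF11 in gFBXW7 + gKMT2D against gLuc and KLF16 in gFBXW7 + gKMT2D against gFBXW7.

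Among the 3 FBXW7 substrates, KLF2 (chromosome 19, 16324817 to 16327874 on GRCh38, plus strand, GENCODE v29) had 102.7, 76.6 and 120.6 CPM in gFBXW7 + gKMT2D. It had 149.0, 112.9 and 120.0 CPM in gFBXW7, against 132.7, 111.0 and 88.8 CPM in gLuc. The highest library was gFBXW7 1 and the lowest gFBXW7 + gKMT2D 2, and all groups overlapped. Its log2 fold change was -0.35 in gFBXW7 + gKMT2D against gFBXW7 (SE 0.21, 95% confidence interval -0.81 to 0.11, edgeR adjusted p = 1), -0.15 against gLuc (SE 0.21, interval -0.61 to 0.31, adjusted p = 0.90) and 0.20 in gFBXW7 against gLuc (SE 0.21, interval -0.26 to 0.66, adjusted p = 0.96). With 1 surrogate variable in the model, the SE of KLF2 in gFBXW7 + gKMT2D against gFBXW7 was 0.09, its log2 fold change -0.38 and its adjusted p 0.072, the lowest of any member under any alternative. That model called 0 members beside 0.943% of all genes in this comparison, and 0 members beside 0.407% against gLuc, where KLF2 had -0.33 (SE 0.10, adjusted p = 0.25).

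KLF13 (chromosome 15, 31326855 to 31435665, plus strand) is the longest member, with 14246 bases in the table. The gFBXW7 + gKMT2D libraries had 295.9, 425.6 and 194.6 CPM, the gFBXW7 libraries 258.1, 333.2 and 342.0 CPM, and the gLuc libraries 265.4, 372.5 and 461.6 CPM. Within gFBXW7 + gKMT2D the highest library was 2.19 times the lowest, and within gLuc 1.74 times, so the groups overlapped widely. The log2 fold changes were -0.26 (SE 0.29) in gFBXW7 + gKMT2D against gLuc, -0.03 (SE 0.29) against gFBXW7 and -0.24 (SE 0.29) in gFBXW7 against gLuc. The interval of the first, -0.91 to 0.38, was about as wide as the other 2 and leaves room for changes of either sign. That fold change against gLuc was -0.58 without gFBXW7 + gKMT2D 2, -0.021 without gFBXW7 + gKMT2D 3, -0.45 without gLuc 1, -0.052 without gLuc 3 and -0.019 with 1 surrogate variable.

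KLF5 (chromosome 13, 73054976 to 73077542, plus strand) had 5.39, 6.21 and 6.602 CPM in gFBXW7 + gKMT2D, 5.40, 4.997 and 6.17 CPM in gFBXW7, against 5.46, 6.50 and 7.65 CPM in gLuc. The groups overlapped, gLuc 3 was the highest library and gFBXW7 2 the lowest. The log2 fold change was -0.24 in gFBXW7 against gLuc (SE 0.18, interval -0.64 to 0.15), -0.11 in gFBXW7 + gKMT2D against gLuc (SE 0.18) and 0.13 against gFBXW7 (SE 0.18). None of the 3 substrates was higher in all gFBXW7 libraries than in all gLuc libraries. Of all tested genes, 8.86% had libraries apart in either direction in that comparison, so this says little about the substrates.

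**Figure D3:**
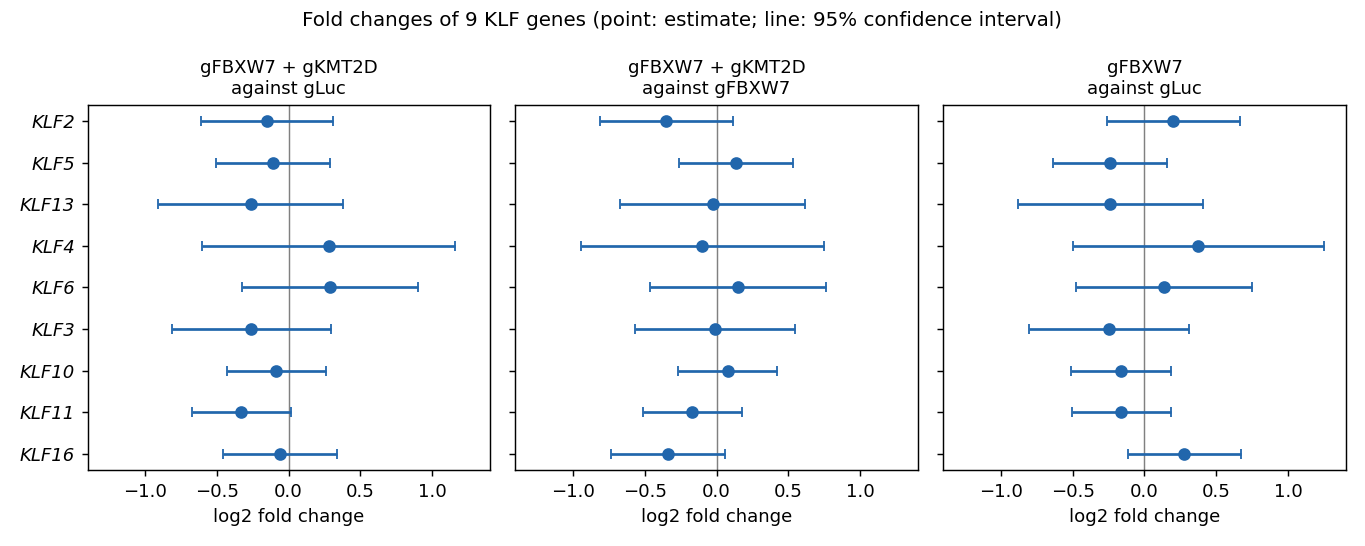
Log2 fold change of each member in each comparison (points) with its 95% confidence interval (lines) from the edgeR fit. Every interval included 0, and KLF11 against gLuc came nearest to leaving it out, with an upper end of 0.02.

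KLF6 (chromosome 10, 3775996 to 3785281, minus strand) had 266.7, 223.4 and 472.5 CPM in gFBXW7 + gKMT2D, 323.0, 284.0 and 258.8 CPM in gFBXW7, against 322.8, 256.9 and 207.1 CPM in gLuc. Its mean in gFBXW7 + gKMT2D, 320.9 ± 133.1 CPM against 262.2 ± 58.0 CPM in gLuc (SD, n = 3), rested on replicate 3. The log2 fold change against gLuc was 0.29 (SE 0.27, interval -0.32 to 0.90) with all libraries and -0.10 without gFBXW7 + gKMT2D 3. Against gFBXW7 it was 0.15 (SE 0.27) with all libraries and -0.23 without that library. In gFBXW7 against gLuc it was 0.14 (SE 0.27). KLF4 (chromosome 9, 107484852 to 107490482, minus strand) was near the limit of detection, with 10, 15 and 14 reads counted in gFBXW7 + gKMT2D, against 8, 12 and 19 in gFBXW7 and 12, 9 and 10 in gLuc. Its intervals were the widest of the family. In gFBXW7 + gKMT2D against gLuc the interval ran from -0.60 to 1.16, and changes within that range remain compatible with these counts.

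The members induced by TGF-beta signalling and the repressors follow. KLF11, a TGF-beta-inducible repressor that recruits SIN3A (chromosome 2, 10042849 to 10054836, plus strand), had 13.7, 15.0 and 13.2 CPM in gFBXW7 + gKMT2D, 13.8, 14.6 and 18.8 CPM in gFBXW7, against 15.6, 18.3 and 18.9 CPM in gLuc. The 3 gFBXW7 + gKMT2D libraries lay below the 3 gLuc libraries, with a gap from 15.0 to 15.6 CPM, and gFBXW7 overlapped both. The log2 fold change against gLuc was -0.33 (SE 0.15, interval -0.67 to 0.02, edgeR adjusted p = 0.90), against gFBXW7 -0.17 (SE 0.16) and in gFBXW7 against gLuc -0.16 (SE 0.15). Its group means, 14.0 ± 0.929, 15.7 ± 2.65 and 17.6 ± 1.74 CPM (SD, n = 3) in gFBXW7 + gKMT2D, gFBXW7 and gLuc, differed by no more than 1.26-fold. KLF11 was the 1 of 9 members with libraries apart in that comparison, where 6.97% of all tested genes had them in either direction.

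KLF16 (chromosome 19, 1852399 to 1863568, minus strand) had 33.9, 32.7 and 35.4 CPM in gFBXW7 + gKMT2D, 46.9, 43.4 and 38.5 CPM in gFBXW7, against 46.0, 30.8 and 29.6 CPM in gLuc. The gFBXW7 + gKMT2D libraries lay close together and below all gFBXW7 libraries, while gLuc spanned both. The log2 fold change was -0.34 in gFBXW7 + gKMT2D against gFBXW7 (SE 0.18, interval -0.73 to 0.06, edgeR adjusted p = 1), -0.06 against gLuc (SE 0.18) and 0.28 in gFBXW7 against gLuc (SE 0.18). The last of these was 0.51 without gLuc 1 (SE 0.14, adjusted p = 0.58), the gLuc library that stood with the gFBXW7 ones. Again 1 of 9 members, KLF16, had libraries apart in gFBXW7 + gKMT2D against gFBXW7, beside 9.55% of all genes, and 0 of 9 had them in gFBXW7 against gLuc, beside 8.86%.

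KLF10, a TGF-beta-inducible early gene (chromosome 8, 102648779 to 102655902, minus strand), varied least of all members. It had 16.2, 19.8 and 16.6 CPM in gFBXW7 + gKMT2D, 16.2, 15.0 and 18.7 CPM in gFBXW7, against 15.8, 19.9 and 20.2 CPM in gLuc. The SD of its log2 CPM over the 9 libraries was 0.17, and its log2 fold changes were -0.09 (SE 0.15), 0.08 (SE 0.16) and -0.16 (SE 0.16) in gFBXW7 + gKMT2D against gLuc, gFBXW7 + gKMT2D against gFBXW7 and gFBXW7 against gLuc. The first of these intervals ran from -0.43 to 0.26. KLF3, a repressor that recruits CtBP and acts in B cell development (chromosome 4, 38664196 to 38701042, plus strand), had 26.9, 35.1 and 19.7 CPM in gFBXW7 + gKMT2D, 23.4, 28.1 and 31.0 CPM in gFBXW7, against 23.0, 36.4 and 38.7 CPM in gLuc. Like KLF13 it was lowest in gFBXW7 + gKMT2D 3 and highest in gLuc 3, and its log2 fold changes were -0.26, -0.01 and -0.25 (SE 0.25 each) in the same comparisons. The first was -0.49 without gFBXW7 + gKMT2D 2, -0.073 without gFBXW7 + gKMT2D 3, -0.46 without gLuc 1, -0.11 without gLuc 3 and -0.052 with 1 surrogate variable. The overlapping antisense gene KLF3-AS1 held 2 to 13 counts a library. KLF11 and KLF16 also overlap antisense genes of GENCODE v29 that were not matched to a row of the table, and whether reads were counted by strand is not given in the sources used here.

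Libraries of the same group differed. In the most variable group of each of the 9 members, the highest library exceeded the lowest by more than the largest fold between group means, as it did for 96.1% of all tested genes. In the other groups this did not always hold: the ratio for KLF16 was 1.08 in gFBXW7 + gKMT2D and 1.22 in gFBXW7, under its largest group fold of 1.26, and that for KLF11 was 1.14 in gFBXW7 + gKMT2D and 1.21 in gLuc, under 1.26 as well. The largest such ratios were 2.24 for KLF4 in gFBXW7, 2.19 for KLF13 and 2.12 for KLF6 in gFBXW7 + gKMT2D. The folds between groups were at most 1.30 for KLF4, 1.20 for KLF13 and 1.22 for KLF6. The median SD of log2 CPM over the 9 libraries was 0.29 for the members and 0.27 for all tested genes.

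Some members fell into opposite patterns across the libraries, a description made after the values were seen. Ordered by ribosomal protein share, from 5.03% in gLuc 3 through 5.46% in gFBXW7 + gKMT2D 2, 6.16% in gLuc 2, 6.80% in gFBXW7 3, 7.47% in gFBXW7 2, 8.07% in gFBXW7 + gKMT2D 1, 8.24% in gLuc 1 and 8.56% in gFBXW7 1 to 11.2% in gFBXW7 + gKMT2D 3, KLF13 was lower at every step. The deviation of its log2 CPM from its own mean was -0.71 in gFBXW7 + gKMT2D 3 and 0.54 in gLuc 3. KLF3 had deviations of -0.53 and 0.44 in the same libraries. KLF6 went the other way, with 0.74 in gFBXW7 + gKMT2D 3 and -0.45 in gLuc 3. KLF2 had -0.53 in gFBXW7 + gKMT2D 2 and 0.43 in gFBXW7 1, and KLF16 had 0.34 in gFBXW7 1 and -0.32 in gLuc 3. In gFBXW7 + gKMT2D 3, where KLF6 was high, KLF2 had only 0.12 and KLF16 -0.06. The remaining members were mixed. In gFBXW7 + gKMT2D 3 and gLuc 3, KLF4 had 0.61 and -0.30, and KLF5 0.14 and 0.35. KLF10 had -0.08 and 0.21 in these libraries, and KLF11 -0.24 and 0.27.

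**Figure D4:**
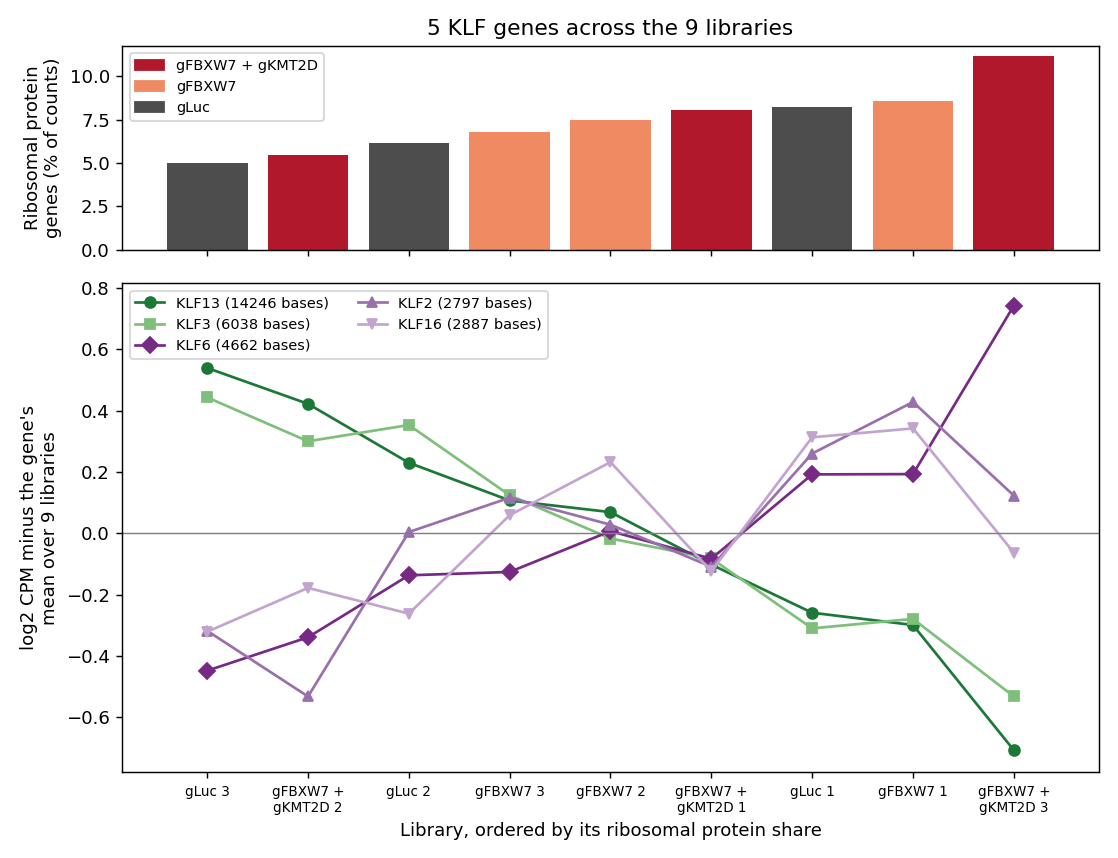
Above, the percentage of each library's counts in ribosomal protein genes, coloured by group. Below, log2 CPM of 5 members minus each gene's mean over the 9 libraries, in the same order of libraries, with KLF13 and KLF3 high where the share was low and KLF6 low there (-0.45 in gLuc 3).

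Gene length moved with the same libraries. Over the 3682 tested genes of at least 6000 bases the median deviation of log2 CPM was -0.20 in gFBXW7 + gKMT2D 3 and 0.24 in gLuc 3, and over the 4908 genes under 3000 bases it was 0.21 and -0.22 in these libraries. KLF13 and KLF3 are the members of at least 6000 bases (14246 and 6038), and KLF2, KLF16 and KLF4 those under 3000 (2797, 2887 and 2989). With each library's length trend removed, the SD over libraries fell to 0.23 for KLF13, against 0.39 with the trend in place, and to 0.24 for KLF3, against 0.33. For KLF6, at 4662 bases, it was 0.41 without the trend and 0.35 with it. The SD was smaller without the trend for 6 of 9 members (66.7%) and for 62% of all tested genes. The part of library composition and of gene length in the levels of KLF genes was not tested.

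By the smallest root mean square difference of centred log2 CPM over the 9 libraries, among 9976 other genes, KLF13 was closest to SIK3 (0.03), ZNF407 (0.03) and DROSHA (0.03). SIK3 had 37.0, 53.4 and 25.1 CPM in gFBXW7 + gKMT2D, 33.5, 42.5 and 43.8 CPM in gFBXW7, against 33.7, 46.5 and 60.8 CPM in gLuc, the library order of KLF13. KLF6 was closest to PIGX (0.04), C11orf73 (0.05) and PABPC4 (0.06), and KLF3 to PIGN, SENP1 and DLG1 (0.05 each). These 3 members were the ones with the largest SD among those with a mean log2 CPM of at least 2. Their nearest genes had lengths of 7971, 15884 and 6193 bases for KLF13 of 3095, 2284 and 3204 bases for KLF6, and of 5264, 5517 and 9315 bases for KLF3.

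Other KLF genes showed no call either. Of 8 listed, 5 were tested and 0 passed in any comparison. KLF12, a CtBP-recruiting relative of KLF3, was the highest of them with 43.5 ± 16.9 CPM in gFBXW7 + gKMT2D, 37.0 ± 4.03 CPM in gFBXW7 and 52.6 ± 15.7 CPM in gLuc (SD, n = 3), again highest in gLuc 3 and lowest in gFBXW7 + gKMT2D 3. KLF7 had 7.79 ± 1.26, 5.80 ± 0.860 and 7.33 ± 0.672 CPM in these groups, which gave 0.43 on the log2 scale in gFBXW7 + gKMT2D against gFBXW7 (SE 0.18, adjusted p = 1). KLF9 had 3.41 ± 0.282, 2.62 ± 0.366 and 2.55 ± 0.470 CPM, which gave 0.42 on the log2 scale in gFBXW7 + gKMT2D against gLuc (SE 0.20, adjusted p = 0.90) and 0.38 against gFBXW7 (SE 0.20, adjusted p = 1), with libraries apart in both. KLF15 had 9.51 ± 2.49, 9.67 ± 0.460 and 12.1 ± 0.471 CPM, with -0.34 in gFBXW7 + gKMT2D against gLuc and -0.33 in gFBXW7 against gLuc (SE 0.19 each) and libraries apart in both, and KLF8 had 1.49 ± 0.278, 1.62 ± 0.0649 and 1.46 ± 0.193 CPM. Of all tested genes, 6.97% had libraries apart in either direction in gFBXW7 + gKMT2D against gLuc. The share was 9.55% against gFBXW7 and 8.86% in gFBXW7 against gLuc. KLF1, the erythroid factor, had 0 or 1 count in each library, KLF17 had 1 count in gFBXW7 1 alone, and KLF14 had none. The sister SP family had 4 of 9 listed genes tested (SP1, SP2, SP3 and SP4) and 0 called. SP3 averaged 127.8, 133.1 and 146.2 CPM, SP1 106.5, 98.3 and 119.4 CPM, SP2 18.3, 15.0 and 19.0 CPM, and SP4 15.8, 14.0 and 18.3 CPM in gFBXW7 + gKMT2D, gFBXW7 and gLuc. SP5 and SP6 had on average under 1 count a library. The median log2 fold change was -0.006, 0.24 and -0.33 over the 5 KLF genes and -0.18, 0.15 and -0.31 over the 4 SP genes in gFBXW7 + gKMT2D against gLuc, gFBXW7 + gKMT2D against gFBXW7 and gFBXW7 against gLuc, beside 0, 0.02 and -0.004 over all tested genes.

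The genes around the KLF proteins were read from 8 further lists, with 0 called in each of the 3 comparisons. On the myeloma axis of KLF2, 7 of 7 genes were tested. IRF4 had 792.5, 1015 and 453.0 CPM in gFBXW7 + gKMT2D, 708.8, 773.3 and 812.6 CPM in gFBXW7, against 780.2, 998.0 and 1070 CPM in gLuc, with log2 fold changes of -0.33, -0.02 and -0.31 (SE 0.26 each) in gFBXW7 + gKMT2D against gLuc, gFBXW7 + gKMT2D against gFBXW7 and gFBXW7 against gLuc. IRF4 was highest in gLuc 3 and lowest in gFBXW7 + gKMT2D 3, as KLF13 was and KLF2 was not. These libraries also had the lowest and highest ribosomal protein share (5.03% and 11.2%). The relation of IRF4 to KLF2 was not tested. KDM3A, the demethylase upstream of KLF2, averaged 33.7 ± 11.6, 34.6 ± 2.602 and 39.6 ± 7.72 CPM (SD, n = 3) in these groups. ITGB7, an integrin subunit of myeloma homing, averaged 1941 ± 562.5, 2197 ± 112.3 and 2176 ± 118.5 CPM, with gFBXW7 + gKMT2D 3 far below the rest at 1303 CPM. MYC, with 302.0, 243.7 and 286.8 CPM on average, had a log2 fold change of 0.31 in gFBXW7 + gKMT2D against gFBXW7 (SE 0.13, adjusted p = 1), and PRDM1 one of 0.26 (SE 0.14, adjusted p = 1).

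Upstream of KLF2 and KLF4, 7 of 8 genes of the MEF2 cascade were tested. MEF2D, one of the MEF2 factors that activate both genes, had 126.2, 155.0 and 112.2 CPM in gFBXW7 + gKMT2D, 155.0, 170.5 and 168.9 CPM in gFBXW7, against 165.3, 166.5 and 191.4 CPM in gLuc. Its log2 fold change against gLuc was -0.41 (SE 0.15, adjusted p = 0.90), with libraries apart, and the kinase gene MAP2K5 had -0.28 against gFBXW7 (SE 0.16, adjusted p = 1). Of the TGF-beta genes around KLF10 and KLF11, 13 of 15 were tested. SMAD3, a signal transducer, had 1.46, 2.17 and 1.08 CPM in gFBXW7 + gKMT2D, 2.43, 2.44 and 2.96 CPM in gFBXW7, against 2.33, 2.83 and 2.88 CPM in gLuc. All gFBXW7 + gKMT2D libraries were below all others, with a log2 fold change of -0.72 against gLuc (SE 0.26, adjusted p = 0.90), which did not pass. SMAD7, the inhibitory SMAD that KLF10 represses, averaged 21.2, 27.0 and 25.4 CPM, with -0.35 against gFBXW7 (SE 0.14, adjusted p = 1).

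Growth targets of KLF4, KLF5 and KLF6 had 8 of 9 genes tested, and the cell cycle inhibitor CDKN1A had the lowest p of any listed gene. It had 3.54, 2.75 and 1.94 CPM in gFBXW7 + gKMT2D, 2.05, 2.38 and 1.83 CPM in gFBXW7, against 1.48, 1.19 and 1.32 CPM in gLuc, which gave 1.05 on the log2 scale in gFBXW7 + gKMT2D against gLuc (SE 0.25, adjusted p = 0.77). CDKN1A also had 0.645 in gFBXW7 against gLuc (SE 0.258), with libraries apart, and 0.405 in gFBXW7 + gKMT2D against gFBXW7 (SE 0.242), with overlap. Neither was called. In gFBXW7 + gKMT2D against gLuc, CDKN1B had -0.37 (SE 0.22, adjusted p = 0.90). Several KLF genes respond to the same stimuli as immediate early genes, of which 14 of 18 were tested. EGR1 had 2.53, 4.04 and 2.23 CPM in gFBXW7 + gKMT2D, 2.32, 2.38 and 1.58 CPM in gFBXW7, against 0.954, 1.70 and 0.9745 CPM in gLuc, which gave 1.31 on the log2 scale (SE 0.33, edgeR adjusted p = 0.85) in gFBXW7 + gKMT2D against gLuc. It had 0.795 in gFBXW7 against gLuc (SE 0.335) and 0.516 in gFBXW7 + gKMT2D against gFBXW7 (SE 0.308), neither called. IER2 averaged 74.2, 103.2 and 79.8 CPM, with -0.48 in gFBXW7 + gKMT2D against gFBXW7 (SE 0.16, adjusted p = 1). The summed level of the list was 1010 to 1083 CPM in gFBXW7 + gKMT2D, 1168 to 1196 CPM in gFBXW7 and 1139 to 1178 CPM in gLuc. Most of each sum was MCL1 (410.0, 471.3 and 493.8 CPM on average in these groups) and BTG2 (233.5, 256.5 and 274.0 CPM). The sum does not stand for the list, since 9 of the 14 tested genes were higher in gFBXW7 + gKMT2D against gLuc and 5 lower, beside 50% higher over all tested genes.

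The list of ligases and ligase subunits reported for KLF proteins, with the kinase genes GSK3A and GSK3B, had 13 of 13 genes tested. Among them, SIAH1 had 0.36 in gFBXW7 against gLuc (SE 0.26), and GSK3B, a kinase that phosphorylates FBXW7 substrates, had -0.31 there (SE 0.25). Corepressors and coactivators had 13 of 15 tested, with KAT2B at -0.30 (SE 0.15) in gFBXW7 against gLuc and HDAC1 at -0.18 (SE 0.12) in gFBXW7 + gKMT2D against gFBXW7. Of the trafficking genes that KLF2 controls in lymphocytes, 3 of 9 were tested and the receptor gene S1PR1 was not among them. The edgeR adjusted p of SIAH1, GSK3B, KAT2B and HDAC1 was at least 0.956 in the comparisons given. The median log2 fold changes of these 3 lists lay between -0.18 and 0.01 in the 3 comparisons. Those of the myeloma axis and the MEF2 cascade lay between -0.20 and -0.02, those of the TGF-beta genes between -0.11 and 0.03, those of the growth targets between -0.15 and 0.08 and those of the immediate early genes between -0.02 and 0.23, beside -0.004 to 0.02 over all tested genes.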

How the data were processed

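Poly(A) RNA of 9 OPM-1 libraries was sequenced after strand-specific (dUTP) library preparation, per the labels' protocols. The submitters' processing notes name Trimmomatic, STAR, featureCounts, DESeq2 and GRCh38, with no versions. The authors deposited 1 table with raw read counts and RPKM per gene, per the file headers. RPKM recomputed from count, length and library total differed by at most 8.5e-07 in relative terms. An unnamed row of library totals was left out. The replicates are described as independent and biological, with no word on separate cultures. The p-values therefore judge group differences against the spread between these libraries only.

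The test was edgeR 4.0.16 under R 4.3.3 (filterByExpr, TMM, glmQLFTest, Benjamini-Hochberg over 13262 genes, threshold 0.05), with group as the only term. Log2 CPM used a prior count of 2. Standard errors are the size of the fold change over the root of its F. The 9 members, the 12 gene lists (147 entries) and the tests were chosen with earlier results of these data known. Members were always named. From each list the called genes, otherwise the 2 with the lowest unadjusted p, were named, as were KLF and SP genes with a read and the 3 genes closest to each of 3 members. One gene that the rule names is not reported here. IRF4, KDM3A, S1PR1, HBB, JCHAIN, MCL1 and BTG2 fall outside that rule and were named after their values were seen. Alternatives were DESeq2 size factors, other filters, the DESeq2 1.42.0 Wald test, limma 3.58.1 on log2(RPKM + 1), a fit of only the 6 libraries compared, the replicate block, 1 surrogate variable (sva 3.50.0), each library left out and, added after seeing the data, removal of each library's length trend (lowess, span 0.3). The pipeline was tested on simulated data. Promoters are from RefSeq (GRCh38.p14), coordinates from GENCODE v29.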

Additional observations from a re-analysis of the deposited data

How the results depend on the processing

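No member was called under the 9 other settings or with any of the 9 libraries left out. Of the 483 fold changes of members under alternatives (27 results), 22 turned sign and 461 did not, 11 had an unadjusted p under 0.05 (KLF2, KLF11 and KLF16), and the lowest adjusted p was 0.072. Signs turned with 1 surrogate variable for KLF6 (-0.015 in gFBXW7 + gKMT2D against gLuc, and -0.076 in gFBXW7 against gLuc) and KLF13 (0.044 in gFBXW7 against gLuc), and with the 6 compared libraries alone for KLF3 (0.006 in gFBXW7 + gKMT2D against gFBXW7). The cause was not tested. When single libraries were left out, log2 fold changes in gFBXW7 + gKMT2D against gLuc ranged from -0.31 to 0.009 for KLF2, -0.032 to 0.49 for KLF4, -0.22 to 0.032 for KLF5, -0.10 to 0.49 for KLF6 and -0.17 to 0.17 for KLF16. In gFBXW7 + gKMT2D against gFBXW7 they ranged from -0.24 to 0.18 for KLF3, -0.41 to 0.22 for KLF4, -0.23 to 0.36 for KLF6, -0.022 to 0.17 for KLF10 and -0.34 to 0.22 for KLF13, and in gFBXW7 against gLuc from -0.014 to 0.32 for KLF6. With signs kept, they ranged in gFBXW7 + gKMT2D against gLuc from -0.58 to -0.021 for KLF13 and -0.49 to -0.073 for KLF3, and in gFBXW7 against gLuc from -0.42 to -0.043 for KLF13 and -0.45 to -0.12 for KLF3 (both ends without gLuc 1 and gLuc 3). Signs turned without gFBXW7 + gKMT2D 2 for KLF2 and KLF10, without gFBXW7 + gKMT2D 3 for KLF6 and KLF13, without gLuc 1 for KLF16 and without gLuc 3 for KLF5 and, in gFBXW7 against gLuc, KLF6. KLF13 also turned without gFBXW7 2 or 3, KLF3 without any of gFBXW7 + gKMT2D 3, gFBXW7 2, gFBXW7 3 and gLuc 3, and KLF4 without any gFBXW7 + gKMT2D library or gFBXW7 3. A minimum mean of 50 reads removed KLF4.

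Over all genes, edgeR called 7 in gFBXW7 + gKMT2D against gLuc. The count was 21 with no filter on low counts, 24 with DESeq2, 4 with limma on RPKM, 2 with the 6 libraries alone, 54 with 1 surrogate variable and 2 to 8 without single libraries. In gFBXW7 + gKMT2D against gFBXW7 it called 8, and otherwise 33, 32, 3, 0 and 125 in that order, 5 with the length trend removed and 0 to 7 without single libraries. Leaving out any library moved these counts by over 1.5 times, except gFBXW7 + gKMT2D 3 in both comparisons and gFBXW7 + gKMT2D 2 against gLuc. In gFBXW7 against gLuc it called 0 (209 genes had an unadjusted p under 0.05), and DESeq2 called 1. With the replicate block the counts were 2, 2 and 0, and 0 members were called. Whether same-numbered libraries pair was not settled. The correlations of their deviations from the group means ranged from -0.74 to 0.67 over the 3 comparisons. In gFBXW7 against gLuc they were 0.67, -0.008 and 0.67 for replicates 1, 2 and 3. The deviations within a group sum to 0, so these values cannot decide it. The labels state no pairs, and the numbers were not used as pairs. Depth limits KLF4 most.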
